A study of Mus musculus with 8 samples.

Results

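The transcripts of 7 regulators of the smooth muscle programme were followed in m6A-RIP-seq of mouse primary vascular smooth muscle cells (VSMCs), namely Srf, Myocd, Mkl1 (Mrtfa in the annotation used here), Mkl2 (Mrtfb), Mef2a, Mef2c and Mef2d. Members of the set were chosen by name, and an m6A peak was assigned to a gene when its summit, the single base at which the peak is highest, fell in an annotated exon. By this rule 26 of 42744 listed summits, in 5 of 11361 peak regions, belonged to 3 of the 7 genes. A region here is a stretch of genome covered by overlapping peak intervals of any list.

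The VSMCs had been isolated from the descending aorta of young adult C57BL/6J mice and transduced with lentivirus. One group, shCTR, received a nontargeting hairpin directed against a plant microRNA sequence, and the other, shMettl14, received a hairpin against Mettl14, so that both groups were exposed to virus carrying an shRNA. The methods describe no selection of transduced cells. Total RNA was cut to short fragments, an antibody to m6A enriched the methylated ones (IP), and the unenriched fragments (input) served as background. The 8 samples were 4 IP and 4 input samples, replicates A and B of each shRNA, and each IP sample had 1 peak list called against its own input. Nothing in the sources states that A and B were separate cultures or animals, so any p-value measures only the spread between these lists, and 1 hairpin was used against Mettl14.

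SRF is a DNA-binding factor that recognises CArG boxes in the promoters of contractile and immediate early genes. Myocardin (Myocd) is its coactivator in cardiac and smooth muscle, and the myocardin-related factors Mkl1 and Mkl2 are coactivators that bind monomeric actin and enter the nucleus when actin polymerises. The MEF2 factors Mef2a, Mef2c and Mef2d are related MADS-box proteins that work with class IIa histone deacetylases and with p300. METTL14 is the RNA-binding partner of the methyltransferase METTL3, and the pair writes m6A mostly at DRACH sites (D is any base but C, R is a purine, H is any base but G), often in long exons and near stop codons. A peak needs both a transcript and a methyl mark, so fewer transcripts, fewer cells with the transcript and less methylation cannot be told apart from these lists.

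The shCTR lists A and B held 11158 and 8655 summits, and the shMettl14 lists 13675 and 9256. The median summit rested on 13 to 16 IP fragments, and the lists differed in how finely intervals were split into summits, from 1.23 to 1.51 summits per interval. The targeted gene, Mettl14, had no exonic summit in any list, so the lists do not check the knockdown. Of the 5 smooth muscle markers examined, none had a summit in all 4 lists, Myh11 had one in 3 lists, and Acta2, Tagln, Cnn1 and Smtn had none. Of 4 endothelial markers, Cdh5 and Pecam1 had a summit in all 4 lists and Kdr in 3. Of 4 fibroblast markers, Pdgfra and Col1a1 did so in all 4 lists, and of 4 macrophage markers only Csf1r had a summit, in 1 list. IP pileup at the strongest Cdh5 summit was 93, 109, 46 and 70 fragments in shCTR A, shCTR B, shMettl14 A and shMettl14 B, and at the strongest Pecam1 summit 33, 24, 26 and 26. By limma the tested Cdh5 region had a negative and the tested Pecam1 region a positive change, and neither passed. Both tested fibroblast marker regions had a negative change and neither passed, with percentiles of 96.8, 90.9, 87.0 and 66.7 for Pdgfra, whose groups did not overlap, and 11.9, 3.17, 1.18 and 4.59 for Col1a1, whose groups did. A lower percentile without overlap was seen in 14.3% of the 4929 regions present in all 4 lists. Cald1, a CArG box target of smooth muscle that is no marker of the list, had 4 to 5 summits in every list, with 77, 76, 62 and 28 fragments at its strongest, on a background of 4.13 to 13.4 fragments and at percentiles of 10.6 to 22.3 of fold enrichment, where Cdh5 averaged 73.5. It was named after its values were seen. Per the study's methods the adventitia was removed by enzyme digestion and the inner cell layer was scraped off before the VSMCs grew out. Peak lists do not give expression, so they do not settle the cell type either way, and the part of other cells in the values below was not tested.

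Peaks were found in Srf, Mkl1 and Mkl2 and in none of the other 4 genes. All 3 genes with a peak had one in every list. Of the 7 members 3 thus had a summit in every list, where 3491 of 21581 annotated coding genes (16.2%) did. The same 3 of 7 had a summit in at least 1 list, where 5534 coding genes (25.6%) did. The SRF gene itself and both myocardin-related factors were therefore listed with peaks, while the tissue-restricted myocardin and the 3 MEF2 genes were not. Myocd, Mef2a, Mef2c and Mef2d had 0 exonic summits in each of the 4 lists.

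**Figure D1:**
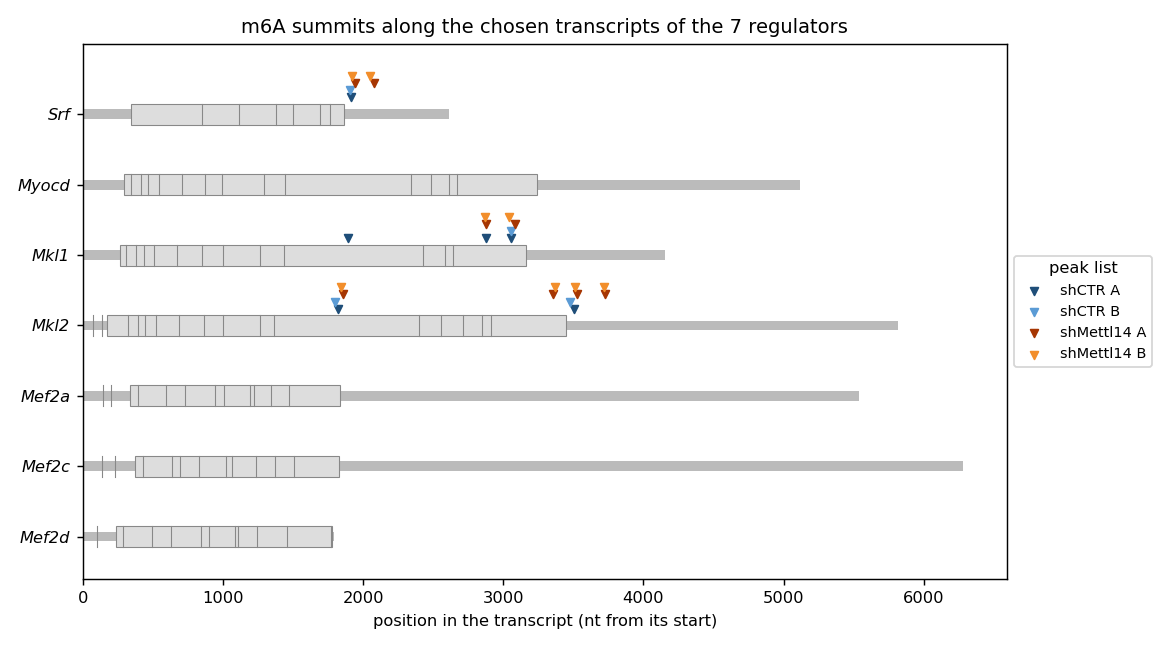
Transcripts of the 7 regulators, drawn to scale in nt from the transcript start, with untranslated regions as thin bars, the coding sequence as a wide box and exon junctions as vertical lines. Triangles are the 26 m6A summits, 1 row and colour per peak list, and they lie only on Srf, Mkl1 and Mkl2, mostly around the end of the coding sequence. Each gene is drawn by its transcript with the longest coding sequence. For Mef2d this transcript has a 3′ UTR of 12 nt, but exons of all its transcripts were searched.

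The sequences near these summits show some of the DRACH sites under the peaks. Each line gives 30 bases of the transcribed strand of GRCm38, 5′ to 3′, with one DRACH match in capitals, for sites that begin with GGAC within 50 nt of the median position of the strongest summits of the region. Of the adjacent pair in exon 10 of Mkl1 only the nearer is shown, and for Mkl2 the DRACH match closest to that position is added. For Srf a TGACT, 89 nt past the stop codon and 33 nt from that position, was nearer than the GGACA shown and is left out. Positions are counted from the first base of the stop codon, which is 0.

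Srf stop region, GGACA at 20 nt past the stop codon: gcccgtcaccctGGACAgacggcccaaggg
Mkl1 stop region, GGACA 137 nt upstream: tgttggccacctGGACAgcatggactggct
Mkl1 stop region, GGACT 128 nt upstream: cctggacagcatGGACTggctggagctgtc
Mkl1 exon 10, GGACT 1222 nt upstream: gctgagctggagGGACTggacaaggaccag
Mkl2 exon 12, GAACT 1600 nt upstream: ctgtctactctaGAACTggatgctgctgag
Mkl2 exon 12, GGACC 1580 nt upstream: tgctgctgagaaGGACCgcaaacttcagga
Mkl2 stop region, GGACT 2 nt upstream: gccgctgccatgGGACTaaggtcacaggtc
Mkl2 stop region, AAACA 43 nt past the stop codon: cgtgagatttggAAACAtggaaacaaacct

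The Mkl2 site GGACT runs into the stop codon, and its last base is the first base of TAA. Both Mkl1 stop region sites lie so close together that their 30-base windows overlap. For comparison, the unpeaked genes hold DRACH sites near their stop codons as well:

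Myocd, AAACA at 3 nt: tacagcagtggtAAACAcccgaggtacaag
Mef2a, GGACA 14 nt upstream: acgcatgaggatGGACAcatgggtgaccta
Mef2c, GGACT 76 nt upstream: cactcccccattGGACTcaccagaccttcg
Mef2d, GGACT 98 nt upstream: tgatggacggggGGACTttgggcccacact

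A DRACH match lay within 50 nt of 25 of the 26 member summits (96.2%), against 95.2% of all 34393 exonic summits of coding transcripts, and GGACT lay that close to 6 of 26 (23.1%) against 21.0%. By list GGACT lay near 2 of 6 and 2 of 4 member summits in shCTR and near 1 of 8 and 1 of 8 in shMettl14. Over all summits the shares were 21.4% and 23.1% in shCTR and 19.1% and 21.4% in shMettl14. Within 200 nt of the stop codon the chosen transcript of Srf held 6 DRACH matches, Mkl1 10 and Mkl2 15, while Myocd held 9, Mef2a 8, Mef2c 4 and Mef2d 4. The genes without a peak thus had such letters in the same window, and the counts for Myocd and Mef2a were above that for Srf. The Mef2d window was cut short, since its chosen transcript has a 3′ UTR of 12 nt.

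Srf, the DNA-binding factor, had 1 region, chr17:46548821-46549158, in its last exon (exon 7 of 7, 850 nt) and around the start of the 3′ UTR. The strongest summit lay 51 and 48 nt past the first base of the stop codon in shCTR A and B, and 80 and 61 nt past it in shMettl14 A and B, so all 4 lists placed it within 32 nt. IP pileup, the count of pulled-down fragments that cover the summit, was 23 and 21 in shCTR A and B, and 28 and 21 in shMettl14 A and B. The groups overlapped in this count. Fold enrichment over the local background was 7.35 and 7.41 in the shCTR lists and 7.83 and 9.82 in the shMettl14 lists, both of the latter being higher. The background at the summit was 2.26, 1.97, 2.71 and 1.24 fragments in the same order, so the high fold of shMettl14 B stood on the lowest background of the 4.

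Because lists differ in depth and background, fold enrichment was also placed as a percentile within its own list, 100 being the strongest summit. Srf stood at 43.4 and 42.9 in shCTR (43.2 ± 0.309, SD, n = 2) and at 55.3 and 64.8 in shMettl14 (60.1 ± 6.74, SD, n = 2). The shMettl14 lists were higher by 16.9 points without overlap, a pattern that 17.3% of the 4929 regions present in all lists showed in this direction. In limma fitted to the normal scores of the ranks of all these regions, the change was 0.44 ± 0.50 (SE) with an adjusted p of 0.999. The change was 0.16 without shMettl14 B and 0.71 without shMettl14 A. Both shMettl14 lists also held a second, weaker summit downstream, at 219 nt with 11 fragments in A and at 187 nt with 8 fragments in B. The shCTR lists named no second summit, although the interval of shCTR B, and not that of shCTR A, covered these positions.

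Mkl1, a myocardin-related coactivator that responds to actin, had its strong region at chr15:81013114-81013686, in the coding part of its last exon (exon 13 of 13, 1512 nt). The strongest summit lay 100 and 104 nt upstream of the stop codon in shCTR A and B, and 75 and 120 nt upstream in shMettl14 A and B. Pileup there was 45 and 33 fragments in shCTR and 38 and 29 in shMettl14, and the groups overlapped. Fold enrichment was 15.7 and 14.7 in shCTR and 15.6 and 17.3 in shMettl14, again with overlap. As a percentile the region stood at 91.2 and 88.1 in shCTR (89.6 ± 2.22, SD, n = 2) and at 94.5 and 93.7 in shMettl14 (94.1 ± 0.578, SD, n = 2), a gap of 4.42 points without overlap. Of the 4929 regions present in all lists, 17.3% were higher without overlap in the same way. Ranked by −log10 p or by pileup, the Mkl1 groups overlapped. The limma change was 0.28 ± 0.49 (SE), adjusted p = 0.999. The Mkl1 stop region was thus among the stronger regions of every list, and its rise in rank was within the error of the fit.

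A second Mkl1 summit lay further upstream in the same interval, at 282 nt in shCTR A, 278 nt in shMettl14 A and 286 nt in shMettl14 B, with 27, 19 and 14 fragments. In shCTR B the interval covered this place but no summit was listed. Another summit, in exon 10 of 13 (chr15:81016691-81016838, 1265 nt upstream of the stop codon), was listed in shCTR A only, with 21 fragments, a fold enrichment of 5.40 and percentile 15.95. Since shCTR B lacked it, it was not a peak of both shCTR lists.

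Mkl2, the other myocardin-related coactivator, had 2 regions in every list. The first, chr16:13401003-13401385, lay in the coding sequence of exon 12 of 17 (1032 nt), about midway along the coding sequence. Its summit was 1627 and 1644 nt upstream of the stop codon in shCTR A and B, and 1591 and 1601 nt upstream in shMettl14 A and B. Pileup was 11, 14, 17 and 7 fragments and fold enrichment 4.75, 5.65, 6.78 and 4.18 in that order. Its percentile was 9.47 and 18.9 in shCTR and 40.7 and 3.31 in shMettl14, so the 2 shMettl14 lists lay on either side of both shCTR lists. The limma change was 0.12 ± 0.53 (SE), adjusted p = 0.999, and it turned negative without shMettl14 A (-0.50) or without shCTR A (-0.18). The summit of shMettl14 B was the weakest of all 26, with a −log10 q of 2.15 where the lowest value kept in any list was 2.01 in rounded terms.

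The second Mkl2 region, chr16:13412308-13413271, spanned the stop codon in the last exon (exon 17 of 17, 2904 nt) and was the strongest of the set in shCTR. A central summit in the 3′ UTR lay 58 and 30 nt past the first base of the stop codon in shCTR A and B, and 84 and 67 nt past it in shMettl14 A and B. Pileup at this summit was 53 fragments in shCTR A (95% Poisson interval 39.7 to 69.3), 57 in shCTR B (43.2 to 73.9), and 37 in each shMettl14 list (26.1 to 51.0). The shMettl14 counts were lower than both shCTR counts, with intervals that overlap and that cover counting error only. Pileup was lower without overlap in 37% and higher in 2.45% of the 4929 regions present in all lists, so 1 of 4 member regions lower and 0 of 4 higher was no more than the background. The highest fold enrichment in the region was 16.5 and 23.2 in shCTR and 12.2 and 12.1 in shMettl14. In shMettl14 B that highest value belonged to a side summit 76 nt upstream of the stop codon, and the central summit had a fold enrichment of 11.99. The background at the central summit was 2.26 and 1.499 fragments in shCTR and 2.10 and 2.17 in shMettl14, with overlap.

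Both shMettl14 lists stood lower in rank too. The Mkl2 stop region was at percentile 93.1 and 98.5 in shCTR (95.8 ± 3.80, SD, n = 2) and at 85.8 and 79.4 in shMettl14 (82.6 ± 4.51, SD, n = 2), 13.1 points lower without overlap, as were 14.3% of all regions tested in this direction. The limma change was -1.02 ± 0.51 (SE), with an unadjusted p of 0.0557 and an adjusted p of 0.985. Ranked by −log10 p the fall was 7.10 points and ranked by pileup 2.90 points, and without shCTR B the limma change was -0.57. Divided by the genome-wide background of its list, which scales with read number and fragment length, the pileup was 705 and 819 in shCTR and 602 and 886 in shMettl14, and the groups overlapped. This divisor moves all regions of a list by the same factor, so only the place of a region relative to the others can be read from it.

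The same scaling gave 306 and 302 for Srf in shCTR against 456 and 503 in shMettl14, and 599 and 474 for Mkl1 against 619 and 694. Srf and Mkl1 were then higher in both shMettl14 lists than in either shCTR list. So were 35.2% of the 4929 regions present in all lists, while 3.9% were lower without overlap, and the median ratio of shMettl14 to shCTR over these regions on this scale was 1.19. The ratio was 1.58 for Srf, 1.22 for Mkl1 and 0.977 for the Mkl2 stop region, and 1.28 for Mkl2 exon 12, whose groups overlapped. The median ratio of the unscaled pileup over the same regions was 0.831, against 1.11 for Srf, 0.859 for Mkl1 and 0.673 for the Mkl2 stop region. By unscaled pileup the Mkl2 stop region lay below, and Srf above, the median region. The scaled ratios add no second support for this, since the divisor is the same for all regions of a list.

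**Figure D2:**
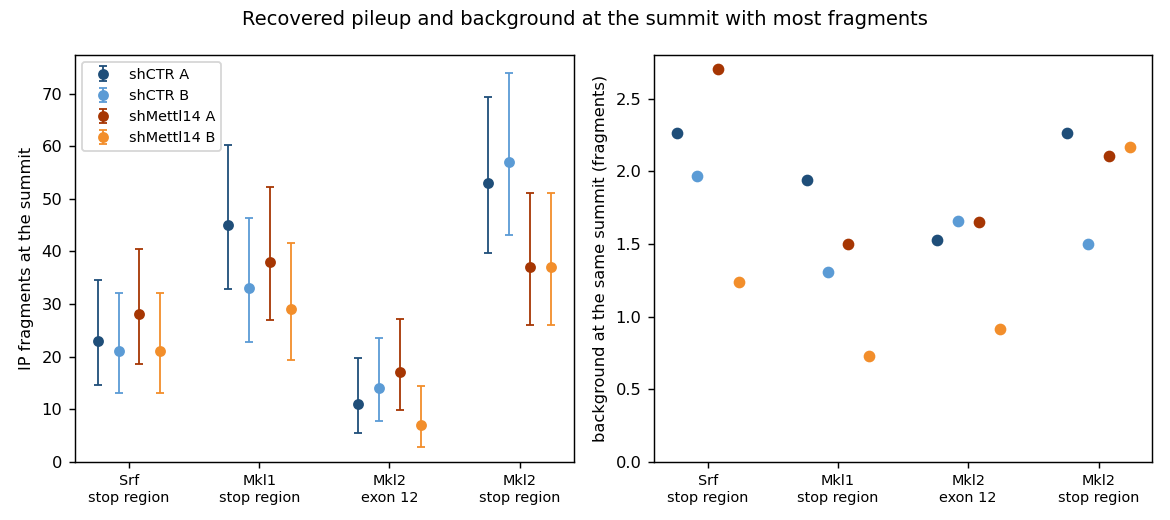
IP fragments at the summit with most fragments (left, with 95% Poisson intervals as bars) and the background at the same summit in fragments (right) for the 4 regions present in every list, 1 point per peak list. In the Mkl2 stop region both shMettl14 lists stand at 37 fragments and the shCTR lists at 53 and 57, while in the other regions the groups overlap. Of all regions present in every list, 37% were lower in this way.

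**Figure D3:**
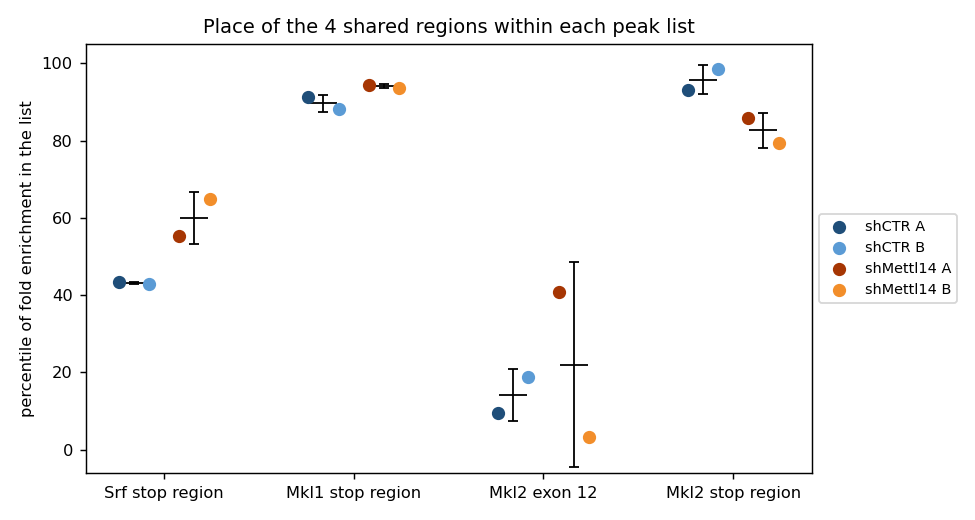
Percentile of fold enrichment within each list for the 4 shared regions, 1 point per list, with the group mean as a bar and the SD (n = 2) as whiskers. Srf and Mkl1 stand higher and the Mkl2 stop region lower in both shMettl14 lists, and Mkl2 exon 12 overlaps. Of all regions present in every list, 17.3% were higher and 14.3% lower without overlap.

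In the Mkl2 stop region the shape of the peak differed between lists as well. Each shCTR list gave 1 summit, and each shMettl14 list gave 3, the central one and a pair at its sides. The upstream summit lay 90 nt before the stop codon in shMettl14 A and 76 nt in B, each with 21 fragments, and the downstream one lay 284 nt past it with 24 fragments in A and 275 nt past it with 15 fragments in B. The 2 shMettl14 lists thus placed these side summits within 14 and 9 nt of each other. The intervals of both shCTR lists covered all of these positions without a summit being listed there.

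**Figure D4:**
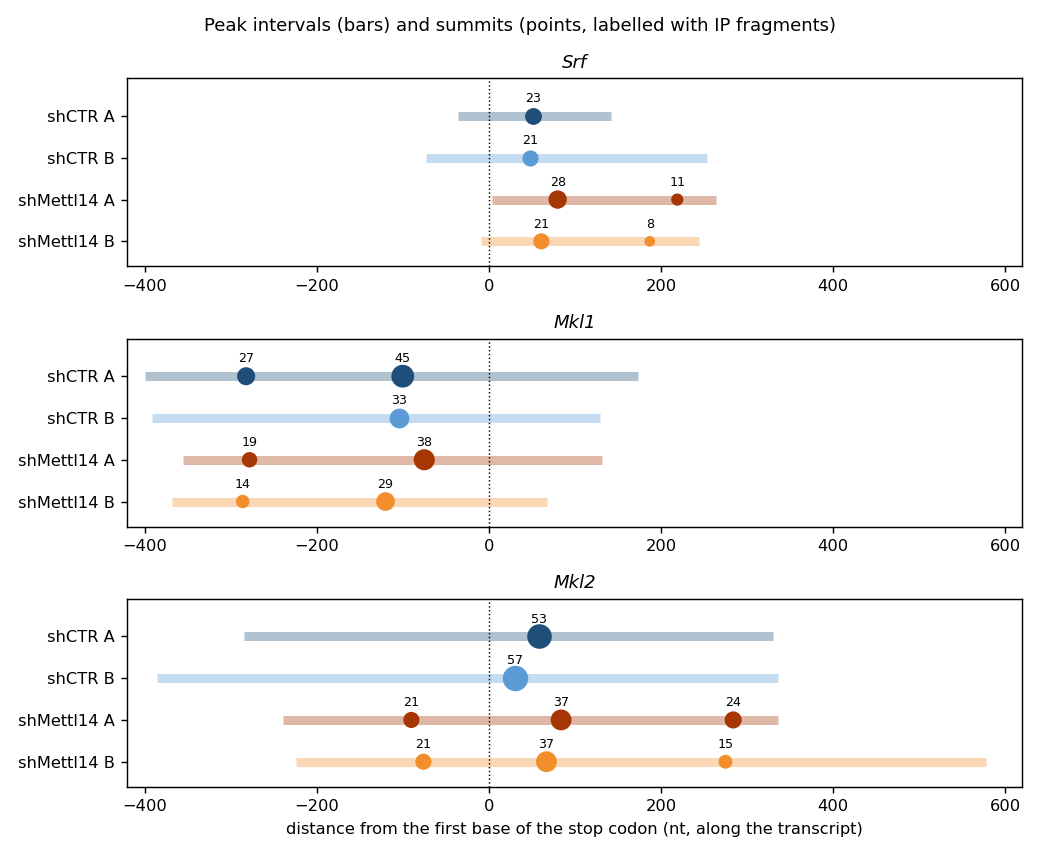
Peak intervals (bars) and summits (points, area in proportion to the IP fragments printed above them) around the stop codons of Srf, Mkl1 and Mkl2 in each peak list, by distance in nt from the first base of the stop codon (dotted line). The central summits lie within 32 nt of each other for Srf, 45 nt for Mkl1 and 54 nt for Mkl2, and additional summits appear in both shMettl14 lists of Srf and Mkl2 and in 3 of the 4 lists of Mkl1.

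Counted over the set, exonic summits numbered 6 and 4 in shCTR A and B, and 8 and 8 in shMettl14 A and B. Both shMettl14 lists held more than either shCTR list (5 ± 1.41 against 8 ± 0, SD, n = 2), with an exact two-sided permutation p of 0.333, the smallest that 2 lists against 2 can give. Srf had 1, 1, 2 and 2 summits, Mkl1 3, 1, 2 and 2, and Mkl2 2, 2, 4 and 4 in the same list order. Thus 2 of the 3 genes with peaks had more summits in both shMettl14 lists, against 8.35% of the 6075 genes with an exonic summit in any list. All 3 had a summit in every list, as only 3690 genes did, so this share is not over like genes. Of the 4 shared regions 2 had more summits in both shMettl14 lists, against 9.58% of shared regions. Counted as distinct intervals, however, the lists held 5, 4, 4 and 4, and the difference turned to 0.5 fewer in shMettl14. The excess thus lay in the number of summits listed within an interval. The shortest interval of a list was 141 and 170 bp in shCTR and 97 and 112 bp in shMettl14, and the fragment length used in calling is not given. The part of the calling settings in the extra summits was not tested.

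No member region was present in both lists of one shRNA and absent from both of the other. Over all regions this occurred in 1.71% for shCTR and in 1.79% for shMettl14, and 43.4% of regions were in all 4 lists, as were 4 of the 5 member regions. By limma 0 of the 4 shared member regions were called at an adjusted p of 0.05, as were 0% of all 4929 regions, and 0 of 4 fell below an unadjusted p of 0.05, against 4.93% of all. Fisher's exact test on the summed pileups and backgrounds, the kind of test named in the study's methods, called no region at either level, but with backgrounds of a few fragments it adds no support. Of the 4 member regions 3 had a positive change and 1 a negative change, with a median of 0.20, and over the 4929 regions 2471 were positive and 2458 negative with a median of 0.00.

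The authors' intervals of overlap between replicates held 4 member intervals for shCTR and 4 for shMettl14, 1 each in Srf and Mkl1 and 2 in Mkl2, and each had a partner in the other shRNA. Of these 8 intervals 3 reached past the ends of the intervals listed for the same shRNA, by 16 to 54 nt, so they were not a plain intersection of the lists used here.

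Along the transcripts, 14 member summits lay in coding sequence, 12 in 3′ UTRs and 0 in 5′ UTRs. Of the 26, 15 (57.7%) lay within 200 nt of the stop codon, against 26.4% of all exonic summits of coding transcripts, but the summits of 1 region in different lists are repeats of 1 place. The share was 50% and 75% in shCTR and 50% and 62.5% in shMettl14, and the groups overlapped. The mean share in shMettl14 minus that in shCTR was -6.25 points, but 6.25 without shCTR B, -18.75 without shCTR A and 0 without shMettl14 A. All 26 summits lay in exons of 850 nt or longer, where 85.2% of all summits lay in exons of at least 800 nt. Distance to the nearest splice junction ran from 141 to 817 nt with a median of 437.5, close to the median of 418 over all summits. No other annotated gene had an exon at any member summit.

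Myocd, the coactivator restricted to cardiac and smooth muscle, had no summit in its exons or introns in any list. The chosen Myocd transcript is 5114 nt long with a last exon of 2443 nt. Mef2c, a MEF2 factor of muscle, vessel and neural development, likewise had no summit in exon or intron, and its last exon is 4772 nt long. Mef2d, a widely expressed MEF2 factor, had none in any of its exons, the longest of which is 3455 nt, nor in introns.

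Mef2a, another widely expressed MEF2 factor, had no exonic summit but did have summits in an intron, outside the rule used here. There were 4 and 2 in shCTR A and B, and 3 and 1 in shMettl14 A and B, in 3 regions between chr7:67298445-67301896, with 6 to 11 fragments each. The stretch also lies within the body of Lysmd4, and the peaks carry no strand, so the gene of origin cannot be told apart. Mkl2 had 1 intronic summit in shCTR B (5 fragments) and 1 in shMettl14 A (4 fragments), placed 1 nt apart.

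Among the 3690 genes with a summit in all 4 lists, the gene whose percentiles were closest to those of Srf was Pja1, with a mean absolute difference of 3.13 points over the 4 lists. Closest to Mkl2 was Yipf5 (1.72 points). Pja1 stood at 52.3, 45.5, 54.8 and 65.4, and Yipf5 at 95.6, 98.1, 86.4 and 82.9 in the order shCTR A, shCTR B, shMettl14 A and shMettl14 B. These genes were picked for their likeness, so their values say nothing further of Srf or Mkl2.

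Of 46 other genes of the SRF, myocardin and MEF2 pathway, 18 had an exonic summit in all 4 lists, 5 in some lists and 23 in none. Over all coding genes 16.2% had one in every list and 25.6% in at least 1, but the pathway list was chosen with results of these data known. Their 22 regions present in every list split into 10 with a positive and 12 with a negative change, and 0 were called by limma at an adjusted p of 0.05. At an unadjusted p of 0.05 it was 1 of 22, where 4.93% of the 4929 shared regions passed. No pathway gene had summits in both lists of one shRNA and in neither list of the other.

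In each role the gene with the highest mean percentile is given here. Elk4, a ternary complex factor that binds SRF in competition with the myocardin family, stood at a percentile above 99.9 in each list and had a mean of 99.9, and Elk1 had no summit. Ep300, the acetyltransferase p300, had a mean percentile of 95.8 and 5 to 9 summits per list. Hdac4 was the only one of the 4 class IIa histone deacetylases with a summit, at a mean percentile of 98.8. Mapk7, a kinase that phosphorylates MEF2 factors, averaged 91.7, and Rock2, a kinase on the actin route to the myocardin-related factors, averaged 66.4 and ranged from 37.6 to 86.9. In the actin route Rhoa, Rock1, Diaph1, Diaph3, Scai and Actb had none, nor did the relatives Mef2b and Mamstr.

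Among target genes, Egr1, an immediate early CArG box gene, averaged percentile 94.0, and Jun, a MEF2 target, averaged 98.0. Of the 11 CArG box targets 3 had a summit in all lists and 5 had none, the latter being Acta2, Tagln, Cnn1, Myl9 and Smtn, contractile or cytoskeletal genes of smooth muscle. All 3 MEF2 targets listed had a summit in every list. Of the 10 partners of SRF and myocardin, 5 had a summit in all lists and 4 (Csrp1, Csrp2, Fhl2 and Smarca4) had none. The part of expression level in these counts was not tested.

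Gata6, a zinc finger factor that partners SRF and myocardin, held that 1 region, a count near the background share. Its 3′ UTR region stood at percentiles 66.6 and 58.5 in shCTR A and B, and at 96.4 and 81.3 in shMettl14 A and B. Pileup at the summit of highest fold enrichment was 27, 25, 39 and 25 fragments in that order. The highest pileup anywhere in the region was 41, 30, 39 and 25 fragments, so the counts did not rise on that measure. Both shMettl14 percentiles were higher than both shCTR percentiles, as in 17.3% of the shared regions, while the pileups overlapped on either measure. The limma change was 1.15 ± 0.51 (SE) with an unadjusted p of 0.0330 and an adjusted p of 0.954, and it did not pass.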

How the data were processed

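In m6A-RIP-seq of shCTR and shMettl14 VSMCs, the authors aligned reads to mm10, kept uniquely mapped reads and called peaks per IP sample, with the matched input as control. STAR, SAMtools and MACS2 are named in the submitters' processing notes, and MACS2 version and options are not given in the sources used here. The deposited values per summit were a ratio, the fold enrichment of IP over local background, and −log10 p- and q-values. The authors' overlap intervals carry no values, and all 6 files were used. Groups and replicate letters came from sample titles, and input libraries (4) contribute here solely through the background of the lists.

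MACS2 adds 1 to pileup and background before taking their ratio. IP pileup and background were solved from the deposited ratio and −log10 p, and a whole-number pileup matched in 100% of summits within 0.001 of −log10 p. The lowest background of a list was taken as its genome-wide background. Sequencing totals were not analysed here. Summits were placed in GENCODE M21 exons (GRCm38), and intervals sharing at least 1 bp across lists were joined into regions. A region took its highest value per list. Ranks of fold enrichment within a list, as normal scores, were compared with limma 3.58.1 in R 4.3.3 (lmFit and eBayes, two-sided, Benjamini-Hochberg over 4929 regions), and single values by exact permutation. Scripts were tested on simulated data. Poisson intervals cover counting error only, and reads were not shown to be independent molecules.

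Members and gene lists were chosen with earlier results of these data known. Of the pathway list, the text names the gene with the highest mean percentile in each role, any gene with summits under 1 shRNA only, and any gene with a region below an unadjusted p of 0.05. Other genes named as having or lacking summits were chosen after their values were seen. Alternatives were distinct intervals and interval midpoints, other ranked values and log2 fold, a stricter q-value, equal list lengths, the stop codon window, the replicate block, Fisher's exact test and leaving out each list. The gene most like Mkl1 is not reported here.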

Additional observations from a re-analysis of the deposited data

How the results depend on the processing

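The excess of 3 member summits in shMettl14 became -0.5 when distinct intervals were counted and -0.5 by interval midpoints, since an interval with several summits is then counted once. Member regions found under 1 shRNA only numbered 0, and 0 to 1 when single lists were left out, the 1 being Mkl1 exon 10 without shCTR B. The share of summits near the stop codon differed by -6.25 percentage points within 200 nt and by 16.7 within 400 nt. Side summits of shMettl14 enter the wider window, as does the second Mkl1 summit of shCTR A. Within 200 nt it ran from -18.75 to 6.25 when lists were left out, being -18.75 without shCTR A, 6.25 without shCTR B, 0 without shMettl14 A and -12.5 without shMettl14 B. Mkl2 exon 12 changed sign when −log10 p was ranked (-0.059) and ranged from -0.50 to 0.73 when lists were left out. The Mkl2 stop region stayed negative under all 9 alternatives (-1.44 to -0.29, adjusted p 0.825 to 1), with an unadjusted p of 0.0302 without shCTR A, 0.391 without shCTR B (change -0.57), 0.117 and 0.122 without shMettl14 A and B, 0.0455 for centred log2 fold, 0.0491 with the replicate block, 0.0934 by −log10 p, 0.275 by pileup and 0.696 by Fisher's exact test, and Srf (0.16 to 0.71) and Mkl1 (0.11 to 0.33) stayed positive. The percentile fall of Mkl2 was 7.10 points by −log10 p and 2.90 by pileup instead of 13.1. Scaling pileup by the genome-wide background, chosen after seeing the data, moved the ratio of shMettl14 to shCTR from 1.11 to 1.58 for Srf, from 0.859 to 1.22 for Mkl1, from 0.96 to 1.28 for Mkl2 exon 12 and from 0.673 to 0.977 for the Mkl2 stop region. Without shMettl14 A 3 regions were called by limma, none of them a member. With the replicate letter as a block, 0 member regions were called. The difference between lists A and B correlated at 0.0795 across regions between shCTR and shMettl14. That low value does not settle whether same-lettered lists were paired. The strongest summits of the shared regions rested on 7 to 57 fragments in 2 lists per group, and the size of difference that could be called was not tested.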
